A study of Arabidopsis thaliana with 9 samples.

Results

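Transcript levels of 4 expansin genes were followed in Arabidopsis roots of 2 myb36 mutant lines. MYB36 encodes a transcription factor that switches on the genes by which endodermal cells build the Casparian strip, a lignified wall band that seals the space between cells. The genes were EXPA7 (AT1G12560), EXPA18 (AT1G62980), EXPA8 (AT2G40610) and EXLA3 (AT3G45960). They were taken as the probe sets annotated to exactly 1 gene with these loci, which gave 1 probe set per gene, 4 genes of 16548 named on the array. The data comprise 9 Affymetrix arrays of root RNA, of which 3 hold wild-type Col-0, 3 myb36-1 and 3 myb36-2. All 3 lines shared age and conditions: seedlings stood for 2 days in the cold and then grew for 2 weeks on upright plates with 1.2% agar and 1% sucrose in MGRL, a mineral nutrient solution, at 22 °C with 16 h of light. The sample titles name the line of myb36-1 as Arabidopsis-11250 and that of myb36-2 as Arabidopsis-GK543B11, without saying what lesion either carries. The transcript of MYB36 itself was not analysed here, so the line labels were not checked against it.

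Expansins are secreted proteins that loosen plant cell walls at acid pH without cutting the wall polymers, which lets a cell enlarge under turgor. The family has alpha-expansins (EXPA) and beta-expansins (EXPB), for which wall loosening is known, and the expansin-like groups EXLA and EXLB, whose activity on walls is not established. EXPA7 and EXPA18 are known as genes of root hair cells, expressed as hairs form and elongate. EXPA8 is a further alpha-expansin and EXLA3 a member of expansin-like group A.

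Values are deposited log2 levels made with RMA, so a difference of 1 is a doubling. The arrays of myb36-2 lay higher than the rest, with a median of 4.86 ± 0.01 (SD, n = 3 arrays) over all probe sets against 4.61 ± 0.02 in Col-0 and 4.60 ± 0.01 in myb36-1. This shift coincides with the line, so a technical and a biological origin cannot be told apart. Changes in myb36-2 are therefore given a second time on a common scale, made by quantile normalisation of the 9 arrays. That step gives all arrays the same distribution and so removes such a shift whatever its origin. The median change over all 31325 tested probe sets in myb36-2 was 0.16 as deposited and -0.01 on the common scale. Calls rest on limma with Benjamini-Hochberg adjustment over all tested probe sets and an adjusted p under 0.05. Whether the 3 arrays of a line stem from separate cultures is not labelled, and p-values therefore measure a spread between arrays that may be technical. The check of the tissue label was narrow. PYK10, a root beta-glucosidase, was the only one of 9 root markers measured, at 12.5 to 12.8 on all arrays.

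The root hair expansins EXPA7 and EXPA18 did not pass the test in either mutant, and their arrays overlapped those of Col-0. EXPA7 stood at 6.66, 6.89 and 6.72 in the Col-0 arrays, at 6.70, 6.83 and 6.77 in myb36-1 and at 6.83, 6.64 and 6.80 in myb36-2. The ranges of all 3 lines overlapped, and the line means were 6.76 ± 0.12 (SD, n = 3), 6.77 ± 0.07 and 6.76 ± 0.11. In myb36-1 the change was 0.01 ± 0.09 (SE of the fit; adjusted p = 0.99 in limma), with a 95% interval of -0.20 to 0.22. In myb36-2 it was 0.00 ± 0.09 as deposited (adjusted p = 0.99 in limma), with an interval of -0.21 to 0.21. Common-scale values gave a myb36-2 change of -0.16 ± 0.09 (adjusted p = 0.30 in limma), with an interval of -0.36 to 0.05. Between the mutants the common-scale arrays of EXPA7 did not overlap, higher in myb36-1, but the difference of 0.18 did not pass (adjusted p = 0.29 in limma). The last of these intervals against Col-0 reaches 1.28-fold lower. In whole-root RNA, fewer cells of a type and less RNA per cell cannot be told apart.

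EXPA18 stood at 7.61, 7.98 and 7.74 in Col-0, at 7.65, 7.72 and 8.03 in myb36-1 and at 8.00, 7.85 and 8.07 in myb36-2. The highest mean was that of myb36-2, 7.97 ± 0.11 (SD, n = 3), but its range overlapped that of Col-0 (7.78 ± 0.19) and of myb36-1 (7.80 ± 0.20). The change was 0.03 ± 0.13 in myb36-1 (adjusted p = 0.97 in limma; 95% interval -0.27 to 0.32) and 0.20 ± 0.13 in myb36-2 (adjusted p = 0.30 in limma; interval -0.10 to 0.49). The latter was 0.07 ± 0.13 on the common scale (adjusted p = 0.78 in limma; interval -0.22 to 0.36). EXPA7 and EXPA18 tended to deviate together from their line means. Both were highest in replicate 2 among the Col-0 arrays, and both were lowest in replicate 1 there. In myb36-2 both were lowest in replicate 2, whereas in myb36-1 EXPA7 was highest in replicate 2 and EXPA18 in replicate 3. The 9 paired deviations, which share their arrays, had a Pearson r of 0.70 as deposited and 0.69 on the common scale, given as a description only.

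EXPA8 rose in myb36-2 and did not pass the test in myb36-1. Its level was 6.25, 6.03 and 6.14 in Col-0, 5.82, 6.25 and 6.12 in myb36-1 and 6.88, 6.81 and 6.64 in myb36-2. All 3 arrays of myb36-2 lay above all 6 others, whereas the ranges of Col-0 and myb36-1 overlapped. The rise in myb36-2 was 0.64 ± 0.12 as deposited, 1.56-fold (95% interval 1.28 to 1.89; adjusted p = 0.0093 in limma), and 0.48 ± 0.12 on the common scale, 1.40-fold (1.16 to 1.68; adjusted p = 0.035 in limma). In myb36-1 the change was -0.08 ± 0.12 (adjusted p = 0.88 in limma; interval -0.36 to 0.20). The direct contrast placed EXPA8 lower in myb36-1 than in myb36-2, at -0.71 ± 0.12 (adjusted p = 0.0085 in limma), and -0.53 on the common scale (adjusted p = 0.041 in limma). With each array only centred on its median, the rise in myb36-2 was 0.42 and missed the threshold (adjusted p = 0.055 in limma). On the common scale it also missed when any single Col-0 array, myb36-1 replicate 3, myb36-2 replicate 1 or myb36-2 replicate 2 was left out, at adjusted p in limma of 0.052 to 0.11, and the direct contrast missed without any 1 of the 9 arrays (0.054 to 0.11).

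EXLA3 showed the widest separation of the 3 lines among the 4 genes. It stood at 4.16, 3.91 and 3.95 in Col-0, at 3.62, 3.50 and 3.76 in myb36-1 and at 5.13, 4.98 and 5.26 in myb36-2. No 2 lines overlapped, in the order myb36-1, Col-0, myb36-2 from low to high, and the same order without overlap held on the common scale. In myb36-2 EXLA3 rose by 1.12 ± 0.11, 2.17-fold (95% interval 1.83 to 2.57; adjusted p = 6.2e-04 in limma). After quantile normalisation the rise was 0.85 ± 0.11, 1.80-fold (1.52 to 2.13; adjusted p = 0.0032 in limma). Among 16548 named genes this rise held rank 170 from the top as deposited and rank 184 on the common scale. EXLA3 was chosen with earlier results of these data known, so the ranks are descriptions only.

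In myb36-1 the mean of EXLA3 lay below that of Col-0, at -0.38 ± 0.11 (adjusted p = 0.24 in limma), although the 95% interval of that single change, -0.63 to -0.13, lay below 0. The common-scale value was -0.40 (adjusted p = 0.20 in limma). The arrays of myb36-1 and Col-0, neighbours in this order, did not overlap, but their difference did not pass the adjusted test. The direct contrast, myb36-1 minus myb36-2, was -1.50 ± 0.11, with EXLA3 2.82-fold higher in myb36-2 (2.38 to 3.35; adjusted p = 3.2e-04 in limma), and 2.38-fold higher on the common scale (adjusted p = 0.0012 in limma). In tested probe sets with mean levels near that of EXLA3, from 3.52 to 4.28, the median change in myb36-2 was 0.28 as deposited and -0.02 on the common scale. Of these probe sets 32.2% were called in myb36-2 in either direction as deposited and 17.5% on the common scale. In the direct contrast 25.7% and 8.14% of them were called.

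**Figure D1:**
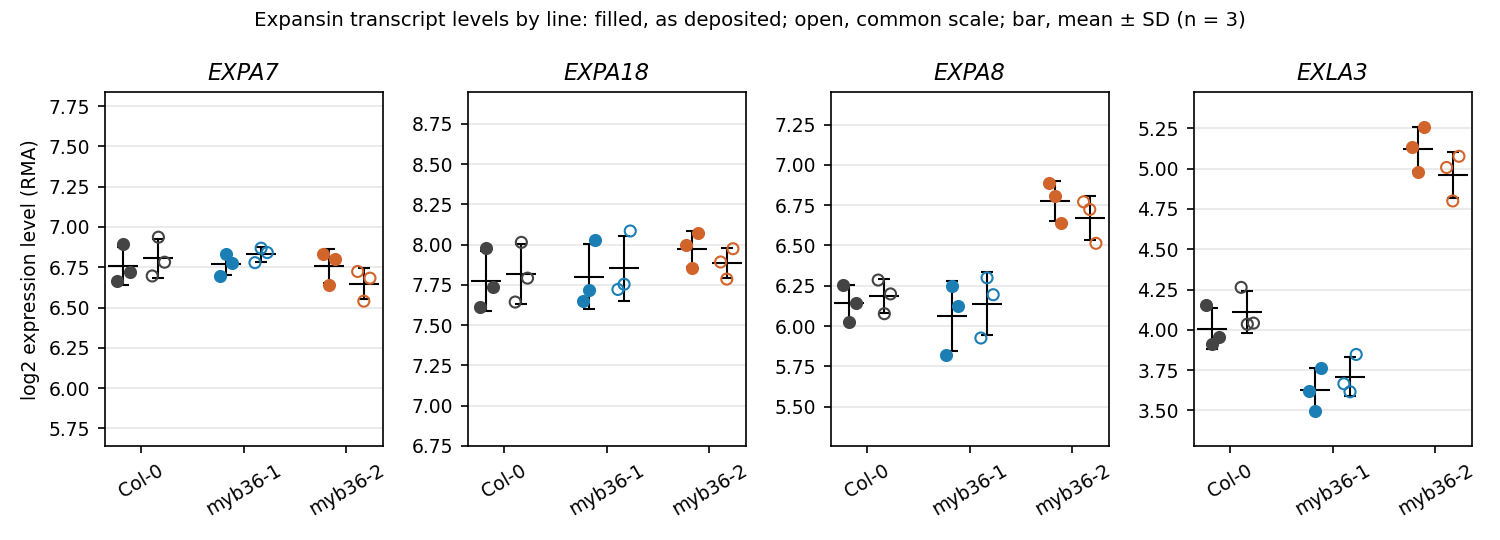
Log2 expression level (y axis, spanning the same number of log2 units in each panel) of EXPA7, EXPA18, EXPA8 and EXLA3 on each array of Col-0, myb36-1 and myb36-2, filled as deposited and open on the common scale, with bars for mean and SD (n = 3). EXPA7 and EXPA18 overlap as deposited in all 3 lines, EXPA8 lies higher in myb36-2 than in the other lines, and EXLA3 runs from 3.50 in myb36-1 to 5.26 in myb36-2.

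In myb36-1, 0 of the 4 genes were called, against 0.495% of the tested probe sets called as deposited, 0.227% higher and 0.268% lower. The common-scale share was 0.472%, with 0.23% higher and 0.243% lower. In myb36-2, 2 of 4 were called, both higher, against 21.3% of all tested probe sets called in either direction and 19.3% called higher as deposited. The common-scale shares were 10.1% and 4.66%. In the direct contrast the same 2 genes, EXPA8 and EXLA3, were called lower in myb36-1, against 15.4% of probe sets called, 14.5% lower and 0.926% higher, as deposited. The common-scale shares were 4.15%, 1.97% and 2.19%. Because the 4 genes were chosen with earlier results of these data known, these counts are descriptions only. All 4 genes lay above the 25th percentile of mean level, 3.26, used as a filter on dim probe sets.

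**Figure D2:**
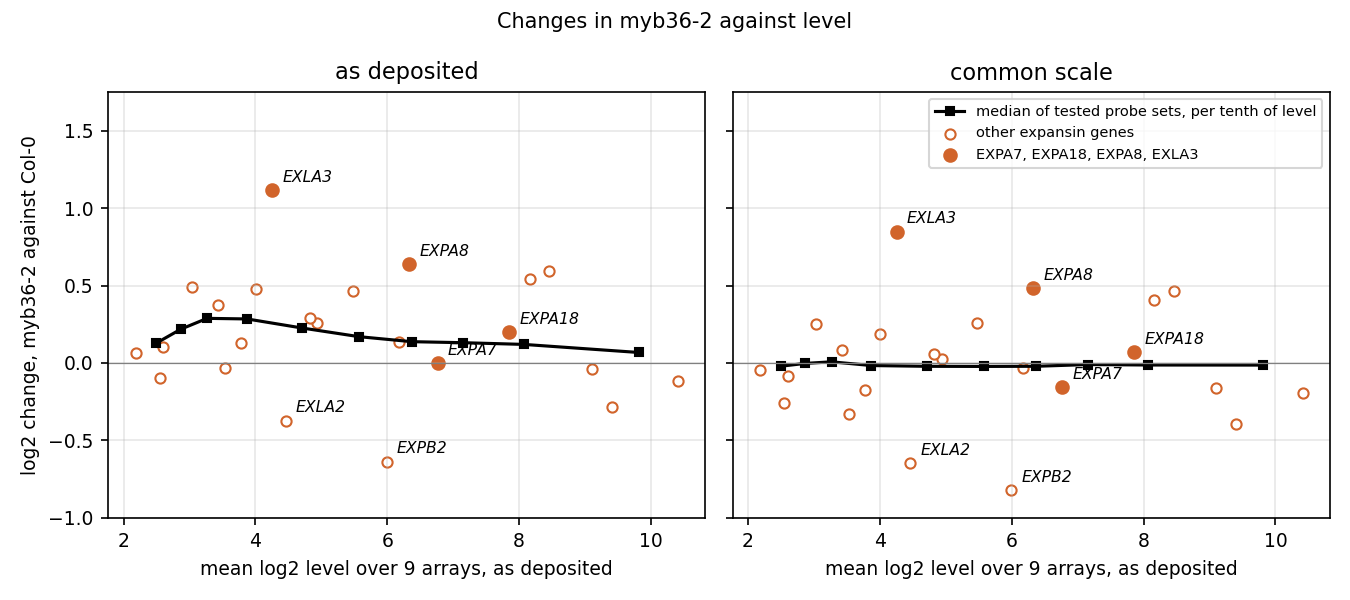
Log2 change in myb36-2 against Col-0 (y axis) by mean log2 level over 9 arrays (x axis) for the measured expansin genes, as deposited (left) and on the common scale (right). The black line joins the medians of all tested probe sets in 10 groups by level, and EXLA3 at 1.12 and 0.85 and EXPA8 at 0.64 and 0.48 stand above it in both panels.

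The expansin family as a whole was measured in part. Of 36 expansin loci 23 were measured: 14 of 26 EXPA, 5 of 6 EXPB, all 3 EXLA and the single EXLB gene. In myb36-1, 0 of 23 were called by limma, with 5 at an unadjusted p under 0.05, and the median change was 0.02. Over all 31325 tested probe sets in myb36-1, 0.495% were called, 3432 had an unadjusted p under 0.05 in limma and the median was -0.01. In myb36-2, 5 of 23 rose and 2 fell as deposited, with a median of 0.13 against 0.16 over all tested probe sets. There, 19.3% of all probe sets rose and 2.02% fell. By common-scale values 2 rose and 3 fell, with a median of -0.03, against 4.66% and 5.39% of all probe sets. The 2 that rose on both scales were EXPA8 and EXLA3, and the 2 that fell on both were EXPB2 and EXLA2.

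Among the other alpha-expansins, EXPA4 (0.54 ± 0.12, adjusted p = 0.017 in limma), EXPA15 (0.59 ± 0.18, adjusted p = 0.047) and EXPA22 (0.49 ± 0.12, adjusted p = 0.020) rose in myb36-2 as deposited. They stood at 0.41, 0.46 and 0.25 on the common scale without passing. The call of EXPA15 was lost when any single array other than Col-0 replicate 1 was left out, with adjusted p in limma of up to 0.12. That of EXPA22 was lost without myb36-2 replicate 1 (adjusted p = 0.056 in limma). EXPA9, EXPA16, EXPA20, EXPA21, EXPA23, EXPA24, EXPA25 and EXPA26 were not called in any of the 3 contrasts on either scale, with changes in myb36-2 of -0.04, 0.38, 0.13, 0.11, 0.13, -0.03, 0.26 and 0.07 as deposited. Their common-scale changes in myb36-2, in the same order, were -0.16, 0.09, -0.03, -0.09, -0.17, -0.33, 0.03 and -0.04. EXPA21 to EXPA26 are close copies in neighbouring loci, so their probe sets may share signal and their single values are uncertain. EXPA21 and EXPA26 were dim too, with all line means as deposited under 3.26.

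Among beta-expansins, EXPB2 fell in myb36-2. It stood at 6.47, 6.44 and 6.19 in Col-0, at 5.72, 6.005 and 5.89 in myb36-1 and at 5.995, 5.66 and 5.53 in myb36-2. Every array of both mutants lay below every Col-0 array. EXPB2 fell by 0.64 in myb36-2 as deposited (SE 0.14, adjusted p = 0.014 in limma) and by 0.82 on the common scale (adjusted p = 0.0090 in limma), while its change in myb36-1 was -0.50 ± 0.14 (adjusted p = 0.22 in limma). EXPB1 was at -0.29 in myb36-1 and -0.28 in myb36-2 without passing as deposited, and it fell on the common scale in myb36-2 (-0.39, adjusted p = 0.034 in limma). EXPB3, EXPB4 and EXPB5 were not called, at -0.32, 0.04 and 0.15 in myb36-1 and at -0.12, -0.10 and 0.48 in myb36-2 as deposited, and at -0.19, -0.26 and 0.19 in myb36-2 on the common scale. EXPB4 was dim, with all line means as deposited under the 25th percentile of mean level, 3.26.

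**Figure D3:**
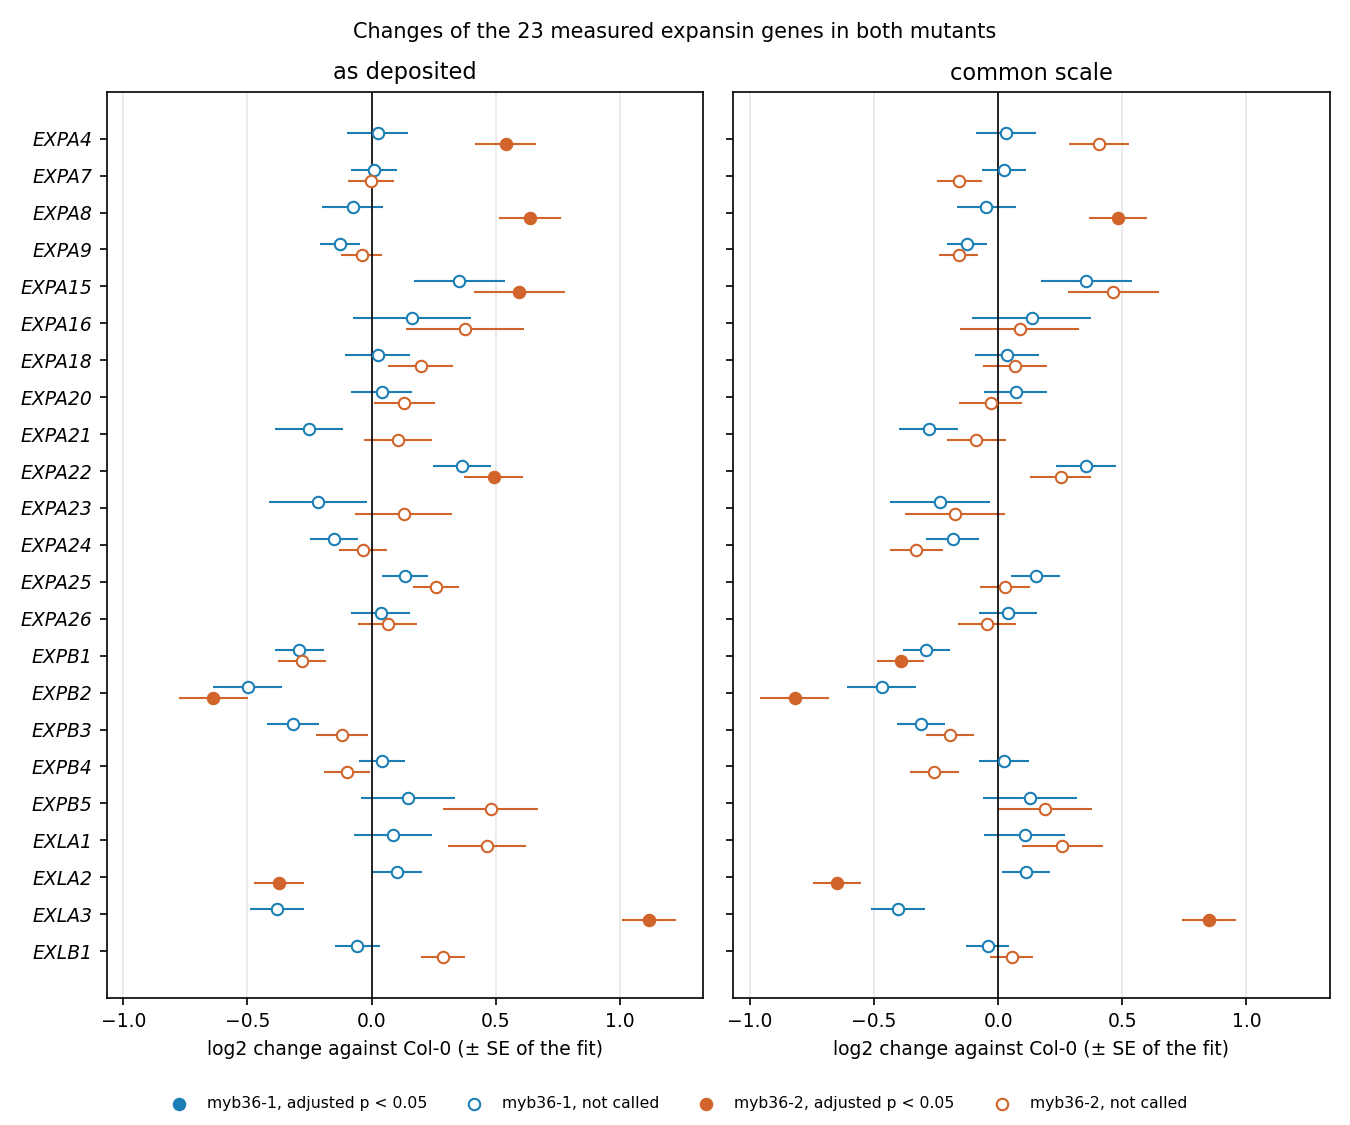
Log2 change against Col-0 with the SE of the fit (x axis) for the 23 measured expansin genes (y axis) in myb36-1 (blue) and myb36-2 (orange), as deposited (left) and on the common scale (right); filled points had an adjusted p under 0.05. No blue point is filled, and EXLA3, EXPA8, EXLA2 and EXPB2 are filled for myb36-2 in both panels.

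The 3 EXLA genes differed in direction in myb36-2, where EXLA3 rose, EXLA2 fell and EXLA1 was not called. EXLA2, another expansin-like A gene, stood at 4.62, 4.63 and 4.39 in Col-0, at 4.53, 4.63 and 4.79 in myb36-1 and at 4.13, 4.24 and 4.15 in myb36-2. The myb36-2 arrays lay below all others, opposite to EXLA3. EXLA2 fell in myb36-2 by 0.37 as deposited (SE 0.10, adjusted p = 0.030 in limma) and by 0.65 on the common scale (adjusted p = 0.0058 in limma). Its change in myb36-1 was 0.10 ± 0.10 (adjusted p = 0.78 in limma), and the mutants differed by 0.47 ± 0.10, higher in myb36-1 (adjusted p = 0.017 in limma), a call lost without myb36-1 replicate 3 or myb36-2 replicate 3 (adjusted p of up to 0.056). As deposited the fall in myb36-2 missed the threshold when Col-0 replicate 1, Col-0 replicate 2 or any myb36-2 array was left out, with adjusted p in limma of up to 0.092.

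EXLA1, whose locus AT3G45970 is the nearest measured gene after EXLA3 with 1 gene between them, stood at 5.16, 5.45 and 5.27 in Col-0, at 5.69, 5.22 and 5.22 in myb36-1 and at 5.87, 5.51 and 5.90 in myb36-2. Its change in myb36-2 was 0.47 ± 0.16 (adjusted p = 0.063 in limma) as deposited and 0.26 on the common scale, and in myb36-1 0.08. On the other side of EXLA3 the nearest measured gene was AT3G45950, at -0.27 in myb36-1 and 0.32 in myb36-2 (0.13 on the common scale), neither called. EXLB1 was at -0.06 in myb36-1 and 0.29 in myb36-2 (0.06 on the common scale) without passing, and lower in myb36-1 than in myb36-2 as deposited (-0.34, adjusted p = 0.034 in limma) but at -0.10 on the common scale. That call was lost without Col-0 replicate 1, myb36-1 replicate 1, myb36-1 replicate 2, myb36-2 replicate 2 or myb36-2 replicate 3 (adjusted p in limma of up to 0.11).

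**Figure D4:**
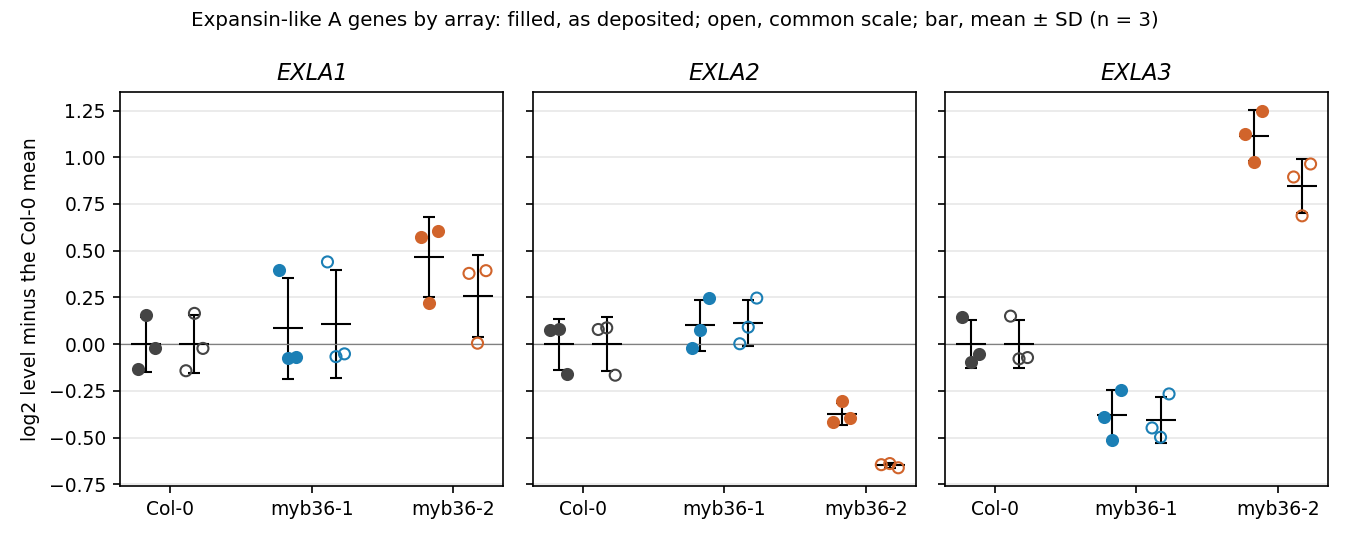
Log2 level minus the Col-0 mean (y axis) of EXLA1, EXLA2 and EXLA3 on each array by line, filled as deposited and open on the common scale, with bars for mean and SD (n = 3). In myb36-2 EXLA3 lies above and EXLA2 below all Col-0 and myb36-1 arrays, while EXLA1 overlaps myb36-1.

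Of the 6 genes measured nearest to the other 3 expansins, 1 was called in myb36-2 as deposited, against 21.3% over all tested probe sets, and 0 in myb36-1, against 0.495%. Beside EXPA7, AT1G12540 and AT1G12570 were at 0.17 and 0.29 in myb36-2 (0.02 and 0.11 on the common scale) without passing. AT1G12540 was lower in myb36-1 than in myb36-2 as deposited (-0.41, adjusted p = 0.012 in limma) and at -0.26 on the common scale without passing. Beside EXPA18, AT1G62978 rose in myb36-2 as deposited (0.66, adjusted p = 0.0066 in limma) and was at 0.38 on the common scale (adjusted p = 0.058 in limma), while AT1G62981 was at 0.65 as deposited (adjusted p = 0.084 in limma) and 0.39 on the common scale, neither called. AT1G62978 was also lower in myb36-1 than in myb36-2 as deposited (-0.68, adjusted p = 0.0083 in limma), with -0.43 on the common scale and no call. Beside EXPA8, AT2G40600 was at 0.22 (0.10 on the common scale) without passing, and AT2G40620 was at -0.18 without passing as deposited and fell on the common scale (-0.30, adjusted p = 0.024 in limma).

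Root hair genes were counted beside EXPA7 and EXPA18. Of 42 listed genes 7 were measured, these 2 included, and 0 of 7 were called by limma in either mutant against Col-0 as deposited, with 1 and 0 at an unadjusted p under 0.05 in myb36-1 and myb36-2. Over all 31325 tested probe sets 0.495% and 21.3% were called, and 3432 and 11584 had an unadjusted p under 0.05 in limma. The median change was 0.03 in myb36-1 and 0.00 in myb36-2, against -0.01 and 0.16 over all tested probe sets, and -0.16 in myb36-2 on the common scale, where limma called 0 of 7 and 10.1% of all tested probe sets. There 3 of 7 had an unadjusted p under 0.05 in limma, against 8521 of all 31325 tested probe sets. All 3 were lower: RSL3 at -0.42 (adjusted p = 0.068 in limma), PER7 at -0.45 (adjusted p = 0.053) and SCN1 at -0.24 (adjusted p = 0.079). As deposited, RSL3 and RSL5, bHLH factors of the family that drives hair growth, were at -0.08 and 0.09 in myb36-1 and at -0.14 and 0.15 in myb36-2, where RSL5 had 0.01 on the common scale. RSL5 was dim, with all line means under the 25th percentile of mean level, 3.26. XTH26, a wall-remodelling enzyme gene of root hairs, was at 0.19 in myb36-1 and 0.25 in myb36-2 (0.00 on the common scale). SCN1, which limits the sites where hairs start, was at -0.24 in myb36-1 and -0.12 in myb36-2. The peroxidase gene PER7 (AT1G30870) was at 0.10 in myb36-1 and -0.27 in myb36-2. Between the mutants it was higher in myb36-1 by common-scale values (0.57, adjusted p = 0.040 in limma), and not called as deposited (0.37, adjusted p = 0.073 in limma). Of 7 genes of the non-hair epidermis 0 were measured.

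XTH genes encode xyloglucan endotransglucosylases and hydrolases, enzymes that cut and rejoin wall xyloglucan and act on the same walls as expansins. Of 33 XTH genes 10 were measured. In myb36-1, 0 of 10 were called by limma, with 1 at an unadjusted p under 0.05, and the median change was -0.12. Over all 31325 tested probe sets in myb36-1, 0.495% were called, 3432 had an unadjusted p under 0.05 in limma and the median was -0.01. In myb36-2, 3 rose and 0 fell as deposited, with a median of 0.10, and on the common scale 1 rose and 2 fell, with a median of -0.12. Over all tested probe sets the myb36-2 medians were 0.16 as deposited and -0.01 on the common scale. There, 19.3% were called higher and 2.02% lower as deposited, and 4.66% and 5.39% on the common scale. XTH19, known from the growing root, was at 4.00, 4.20 and 4.24 in Col-0, at 4.04, 4.35 and 4.07 in myb36-1 and at 5.20, 5.001 and 4.94 in myb36-2. The myb36-2 arrays lay above all others, as they did for EXPA8 and EXLA3. XTH19 rose in myb36-2 by 0.90 ± 0.12 (adjusted p = 0.0020 in limma), and by 0.65 on the common scale (adjusted p = 0.014 in limma), with 0.00 in myb36-1.

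Its close copy XTH18 (0.76, adjusted p = 0.037 in limma) and XTH16 (0.62, adjusted p = 0.0098) rose as deposited and were at 0.46 and 0.40 on the common scale without passing. The rise of XTH18 was lost without Col-0 replicate 1, Col-0 replicate 2, myb36-2 replicate 1 or myb36-2 replicate 2 (adjusted p in limma of up to 0.11). XTH21 and XTH32 fell in myb36-2 on the common scale only (-0.48, adjusted p = 0.025 in limma, and -0.52, adjusted p = 0.047), from -0.31 and -0.22 as deposited. XTH32 was at -0.47 in myb36-1 (adjusted p = 0.18 in limma). XTH20, XTH26, XTH27, XTH29 and 1 further XTH gene were not called on either scale. XTH20 was dim, with all line means under the 25th percentile of mean level, 3.26.

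**Figure D5:**
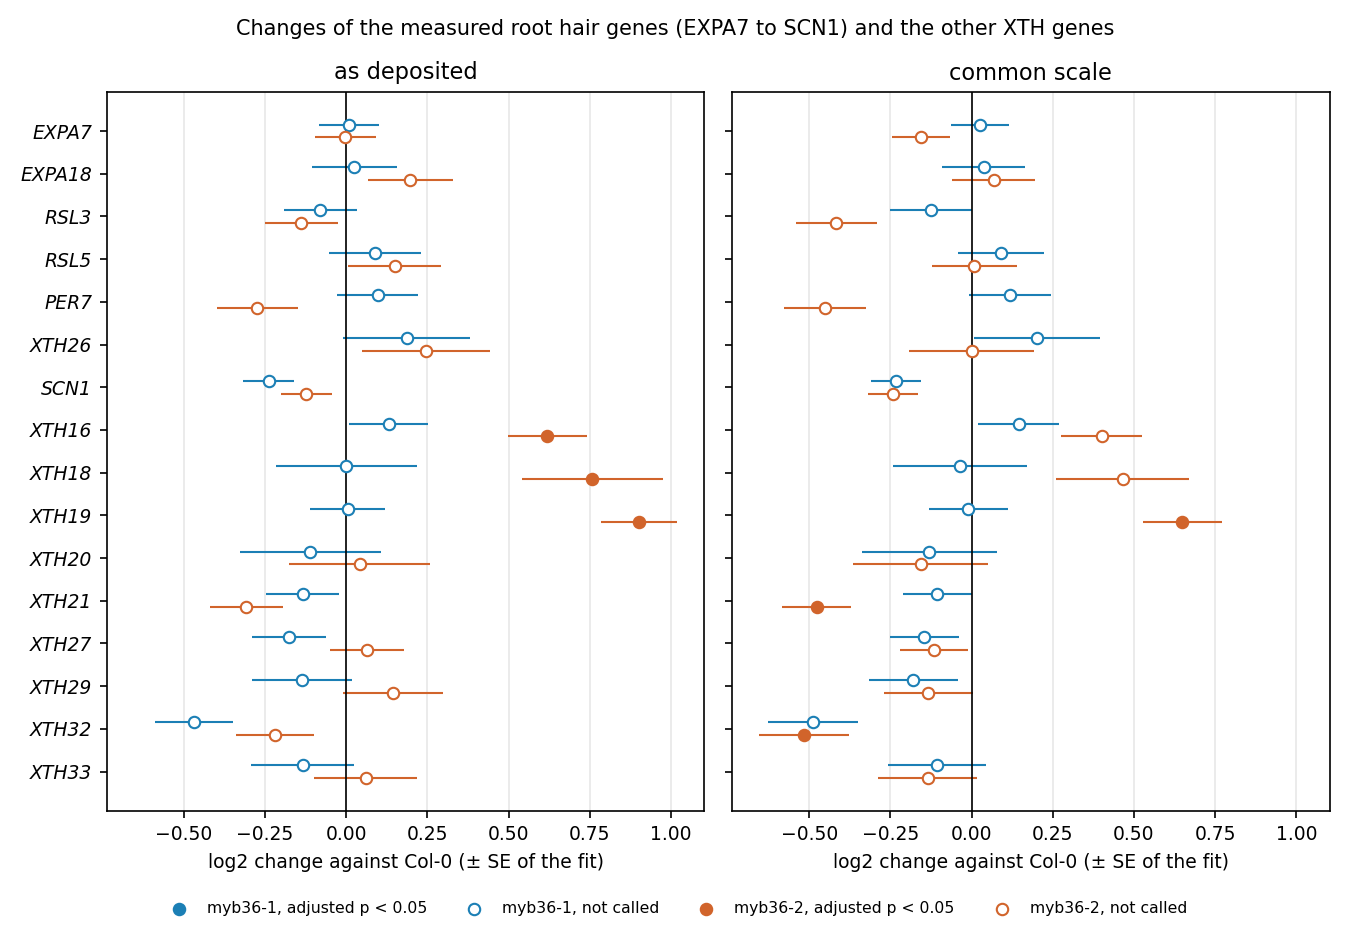
Log2 change against Col-0 with the SE of the fit (x axis) for the 7 measured root hair genes, EXPA7 to SCN1, and the 9 other measured XTH genes (y axis), in myb36-1 (blue) and myb36-2 (orange); filled points had an adjusted p under 0.05. Among the root hair genes no point is filled, and XTH19 at 0.90 and 0.65 is filled in both panels.

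Leaf transcripts were examined as a sign of shoot tissue among the roots. Of 12 leaf markers 2 were measured. RCA, encoding rubisco activase, ranged from 6.76 to 6.99 in Col-0, from 6.48 to 6.88 in myb36-1 and from 6.31 to 6.38 in myb36-2, and it fell in myb36-2 by 0.50 as deposited (adjusted p = 0.015 in limma) and by 0.66 on the common scale (adjusted p = 0.0091 in limma). LHCB4.1, of the light-harvesting complex, ranged from 6.54 to 7.11, from 6.46 to 6.67 and from 6.71 to 7.02, with 0.01 in myb36-2 as deposited and -0.13 on the common scale, neither called. The fall of RCA coincided with the rises of EXPA8 and EXLA3 in the same line, and its part in them was not tested.

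Genes whose pattern over the 9 arrays was most like that of each expansin were ranked by Pearson correlation on the common scale, among 8936 or 8937 named genes with a range of at least 0.5. The points share their arrays and line, so the values are descriptions. Genes were picked for following a member over these same arrays, so whether they were called follows largely from that choice. Their calls are no separate evidence about the member. For EXLA3 the 5 closest were AT3G10190 and AT1G30290 (both r = 0.98), AT5G14600 (0.97), AT5G03250 (0.97) and AT5G59000 (0.97). All 5 were called higher in myb36-2 than in Col-0 on both scales, AT5G03250 by 0.85 and 0.54 and AT3G10190 by 0.58 and 0.35. None was called in myb36-1. Over all tested probe sets, 19.3% were called higher in myb36-2 as deposited and 4.66% on the common scale. For EXPA8 they were AT3G13350 (0.97), AT1G54200 (0.96), AT4G33490 (0.96), the glycosyltransferase gene UGT85A3 (0.96) and AT2G41445 (0.96). AT4G33490 rose by 0.96 in myb36-2 as deposited and by 0.71 on the common scale. For EXPA7 they were AT1G18773 (0.96), AT5G12320 (0.94), AT5G18770 (0.94), ATIM (0.94) and AT4G31890 (0.94). For EXPA18 they were AT4G37220 (0.91), AT5G45440 (0.91), AT3G48940 (0.89), AGL86 (0.88) and AT2G33680 (0.85). None of these 10 genes was called in any contrast on either scale. With values as deposited 2 of the 5 genes for EXLA3, 2 for EXPA8, 1 for EXPA7 and 3 for EXPA18 were again among the closest 5.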

How the data were processed

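Root RNA of 9 samples, with biotin as label, was hybridised to Affymetrix arrays. Per the submitters' processing notes the authors made the deposited log2 values with RMA. Neither its version nor whether RMA was run on all arrays at once is given in the sources used here. Of 38408 probe sets, the first 7083 in identifier order are paired with no gene and were omitted as control-like, a reading that no source states; 31325 were tested. The platform annotation pairs 16722 probe sets with 1 gene and 759 with several. Of the former, 16720 matched a TAIR10.1 reference table that served for gene names and order. The brightest of several probe sets stood for a gene.

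Models were fitted in limma 3.58.1 under R 4.3.3, with a mean for each line, all 9 arrays and empirical Bayes moderation. The 3 two-sided contrasts were each mutant against Col-0 and myb36-1 against myb36-2, with groups taken from the line label. Intervals are at 95% and unadjusted. Precision is limited by the number of arrays. The 4 genes, the gene lists and the naming rules were chosen with earlier results of these data known. Named were all measured expansins, the nearest measured gene on either side of each member and the 5 genes of most similar pattern. Of each other list, all measured genes were named up to 6, and otherwise the 3 lowest and 3 highest changes in each mutant and all called genes. The fit was tested on simulated data with independent noise, changes larger than most given here and no shift of a whole line. That test does not cover smaller changes or such a shift. Alternatives changed the scaling, a filter on dim probe sets (25th percentile), the moderation, which arrays or probe sets entered, and a block for the replicate number, and left out each array. Leaving out each array on the common scale, and all alternatives for single genes of the lists, were chosen after seeing the data.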

Additional observations from a re-analysis of the deposited data

Results flagged for a closer look

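The changes of the mutants against Col-0 differed from each other, by the direct contrast of myb36-1 and myb36-2 in limma, for 8 of the 37 measured genes of the expansin, root hair and XTH lists as deposited, against a share of 15.4% over all tested probe sets (4.15% on the common scale). Myb36-1 minus myb36-2 was -1.50 for EXLA3, -0.71 for EXPA8, -0.90 for XTH19 and 0.47 for EXLA2, and each of these also passed on the common scale, at -1.25, -0.53, -0.66 and 0.76. It was -0.52 for EXPA4, -0.34 for EXLB1, -0.49 for XTH16 and -0.76 for XTH18 as deposited, and these did not pass on the common scale, at -0.38, -0.10, -0.26 and -0.50. PER7 passed on the common scale only, at 0.57, from 0.37 as deposited. Both mutants share the Col-0 arrays, which cancel in the direct contrast. As deposited the contrast missed the threshold without 5 single arrays for EXPA4, 5 for EXLB1, 5 for XTH16, 6 for XTH18 and 2 for EXLA2, and passed without any 1 array for EXLA3, EXPA8 and XTH19.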

How the results depend on the processing

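For the 4 expansins in 3 contrasts, 295 of 312 recomputed values kept their side of the threshold, and all 17 exceptions concerned EXPA8. Results that stayed uncalled count as kept here. Of 26 settings each, EXPA8 stayed called in 19 for myb36-2 against Col-0 and in 16 for the direct contrast. The median-centred change of EXPA8 was 0.42 in myb36-2 and -0.47 between the mutants, both short of the threshold; on the common scale without 1 array each, these ran from 0.43 to 0.56 (called in 3 of 9) and from -0.61 to -0.42 (called in 0 of 9). The rise missed at 0.53, 0.43 and 0.49 without Col-0 replicates 1, 2 and 3, at 0.48 without myb36-1 replicate 3, and at 0.43 and 0.46 without myb36-2 replicates 1 and 2. The direct contrast missed at -0.53 without any Col-0 array, at -0.42, -0.61 and -0.56 without myb36-1 replicates 1, 2 and 3, and at -0.48, -0.50 and -0.61 without myb36-2 replicates 1, 2 and 3. As deposited, without 1 array each, EXLA3 in myb36-2 ran from 1.05 to 1.19 and EXPA8 from 0.58 to 0.71, all called. Changes of EXPA7, EXPA18 and of EXPA8 in myb36-1 took the other sign in 2 to 4 settings each without being called. The replicate number did not pair the arrays (correlations of deviations from line means from -0.19 to 0.08); with the replicate block EXLA3 and EXPA8 in myb36-2 stayed called (adjusted p in limma 0.0020 and 0.025), and 111, 5784 and 3955 probe sets were called. Among list genes a trend in the moderation also ended the calls of EXLA2 in myb36-2 and of EXLB1 between the mutants. The block ended the calls of EXLA2 and XTH18 in myb36-2 and of XTH16 and XTH18 between the mutants. With 2 lines in the fit, EXPA15 in myb36-2 and EXLB1, XTH16 and XTH18 between the mutants were no longer called. With all deposited probe sets the same held for EXPA15 and XTH18 in myb36-2 and for EXLB1 and XTH18 between the mutants. The 155 calls in myb36-1 became 98 with named genes only, 81 with all deposited probe sets, 94 with 2 lines in the fit, 221 with a trend in the moderation, 177 without dim probe sets and 74 to 126 without 1 array. The 6669 calls in myb36-2 became 4119 with named genes only, where fewer were tested, 4082 after median centring, 3149 on the common scale and 3890 to 6409 without 1 array. The 4836 calls between the mutants became 1724, 1301 and 2551 to 4476 under the last 3 of these. A trend in the moderation gave 6901 calls in myb36-2 and 4937 between the mutants. The share of rises among myb36-2 calls was 90.5% as deposited and 46.4% on the common scale. The cause was not tested.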
